A study of Mus musculus with 6 samples.

Results

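The mitochondrial genome is a small circular chromosome kept in many copies per cell outside the nucleus. All rows of the deposited gene table whose symbol starts with mt- were taken, which gave 37 of 26969 genes. They comprise 13 mRNAs, 2 rRNAs and 22 tRNAs, and they are the rows that the table places on chromosome MT. For all 37, start, end and strand in the table were those of the GENCODE M21 annotation of mouse build GRCm38, so positions below are on GRCm38.

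The 6 libraries came from poly(A)-selected RNA of chondrocytes (the matrix-making cells of cartilage) of mouse, all with the genotype wt, and form 2 groups of 3. The series compares normal chondrocytes with chondrocytes into which mitochondria had been transplanted, and its title gives osteocytes, the cells embedded in bone, as the source of these mitochondria. The labels contradict each other: samples described as mAC_Mito carry the treatment entry vehicle, and samples described as mAC carry the treatment entry mitochondria. The groups are named here by the description, as the table's columns are, and a difference is always mAC_Mito minus mAC, without being an effect of mitochondria in a known direction. The sources used here do not give strain, age, time after transfer or whether replicates were separate cultures, so p-values reflect only how these libraries vary, and that variation may be technical. Values of a group are listed in the order of its libraries 1, 2 and 3, written mAC 1 or mAC_Mito 1.

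As background, both strands of the mitochondrial genome are transcribed as long precursors that cover nearly the whole circle. Most mRNAs and rRNAs are bordered by tRNAs, and excision of the tRNAs releases the RNAs between them. Most of these, but not all, then receive short poly(A) tails. The mRNAs encode hydrophobic core subunits of respiratory complexes I, III and IV and of ATP synthase (complex V), while all other subunits, the RNA polymerase Polrmt and the factors that mature these RNAs are encoded in the nucleus. Amounts of mitochondrial RNA differ between cell types with their need for oxidative metabolism, and cartilage cells rely strongly on glycolysis.

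Of the mRNAs, 12 lie on the plus strand and mt-Nd6 on the minus strand. Both rRNAs and 14 tRNAs are on the plus strand, and 8 tRNAs are on the minus strand. The genes are packed so closely that reads near their ends can belong to a neighbour. Coding sequences of mt-Atp8 and mt-Atp6, 2 subunits of ATP synthase, overlap by 43 bases (MT, 7927 to 7969), and those of mt-Nd4l and mt-Nd4, subunits of complex I, by 7 bases (MT, 10167 to 10173). No tRNA lies between the genes of either pair, so each pair may be carried on the same RNA. On opposite strands, mt-Nd5 and mt-Nd6 share 14 bases (MT, 13552 to 13565). These stretches are shown because counts of the genes in each pair are compared below. They are copied 5′ to 3′ from the GENCODE M21 transcripts. Capitals mark the start codon of mt-Atp6 and the stop codon of mt-Atp8 in the first, and the bases that both genes share in the others.
mt-Atp8 and mt-Atp6 overlap: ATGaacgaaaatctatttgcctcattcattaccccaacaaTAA
mt-Nd4l and mt-Nd4 junction: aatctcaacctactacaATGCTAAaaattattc
mt-Nd5, last bases on the plus strand: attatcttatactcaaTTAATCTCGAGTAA
mt-Nd6, last bases on the minus strand: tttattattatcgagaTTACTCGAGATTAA

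Of the 13 mRNAs, 10 end in a full stop codon. In mt-Co3, mt-Nd4 and mt-Cytb the annotated gene stops after the first base of that codon, and as background the poly(A) tail is known to supply the missing bases. The last 24 bases of these genes are shown because the tail that the libraries were selected on is part of their reading frame. Capitals mark the incomplete stop codon.
mt-Co3 (MT, 9367 to 9390, plus strand): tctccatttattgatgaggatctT
mt-Nd4 (MT, 11521 to 11544, plus strand): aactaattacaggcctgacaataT
mt-Cytb (MT, 15265 to 15288, plus strand): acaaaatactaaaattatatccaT
The base makeup separates the strands. G made up 5.88% to 16.1% of the bases of the 12 plus-strand mRNAs and C 22.1% to 30.0%, whereas mt-Nd6 had 28.1% G and 5.97% C.

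Part of this region also exists in the nucleus. On the minus strand of chromosome 1, between 24611535 and 24616197, the table lists 7 pseudogenes, and 6 of them aligned to a mitochondrial mRNA without any mismatch. Gm28661 matched mt-Co2 over 681 bases and had 97.7% to 98.3% of its count in every library. Gm10222 had 98.6% to 99.2% of the count of mt-Nd4l, Gm28437 98.5% to 99.0% of that of mt-Co3, Gm28438 97.1% to 97.7% of that of mt-Nd3, and Gm10925 106% to 109% of that of mt-Atp6. Gm28439 matched the first 876 bases of mt-Nd4 with 42.4% to 51.9% of its count, and Gm29216 matched 483 bases at the 3′ end of mt-Co1 with 1 mismatch and 8.74% to 11.1% of its count. Reads from an mRNA and from its identical copy cannot be told apart. Whether such a read was counted at each place or divided between them is unknown here, so levels of mt-Co1, mt-Co2, mt-Atp6, mt-Co3, mt-Nd3, mt-Nd4l and mt-Nd4 are uncertain relative to those of mt-Nd1, mt-Nd2, mt-Nd5, mt-Nd6 and mt-Cytb, for which the table lists no copy. mt-Atp8 has no row of its own on chromosome 1, but its last 43 bases lie within the stretch that Gm10925 copies. The rest of it lies between the stretches matched by Gm10925 and Gm28661, which are neighbours on chromosome 1. In the same way mt-Ts1, mt-Td, mt-Tk, mt-Tg and mt-Tr lie between stretches matched by neighbouring pseudogenes. The nuclear bases between the pseudogenes were not aligned, so levels of mt-Atp8 and of these tRNAs may be uncertain too.

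Total counts ran from 59116068 to 68378213 per library, and between 21437 and 22107 genes had a count. Both values were lowest in mAC 1. All 17 cartilage markers were detected and tested, and the sum of their FPKM was 2602 to 3123 in mAC and 2508 to 3571 in mAC_Mito. FPKM is a count divided by gene length and library depth, and is the scale used here to compare levels between genes. None of the 17 cartilage markers passed an adjusted p of 0.05 in edgeR. In the same test 1 had an unadjusted p under 0.05, against 3.19% of all genes tested, and 11 log2 fold changes were above and 6 below 0. Of 9 osteocyte and osteoblast markers, the osteocyte genes Sost, Dmp1 and Fgf23 were at 0 to 0.104 FPKM and could not be tested. The list summed to 56.7 to 72.1 FPKM in mAC and 50.2 to 66.3 FPKM in mAC_Mito, most of it from Pdpn (34.7 to 60.1 FPKM). None of the other 6 passed an adjusted p of 0.05 in edgeR, and 1 had an unadjusted p under 0.05, against 3.19% of all genes tested. That gene was Bglap2, an osteocalcin gene of osteoblasts whose near-identical paralogs make its count uncertain, with 1.0, 1.35 and 1.75 FPKM against 4.04, 2.49 and 3.56 FPKM, without overlap between the groups (log2 fold change 1.296, edgeR unadjusted p = 0.00288, adjusted p = 0.99992). Its part in the levels of the mitochondrial RNAs was not tested.

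The summed level of the mitochondrial mRNAs differed strongly between libraries of the same group, and the groups overlapped. The percent of counts on the 13 mRNAs was 7.31%, 4.71% and 3.13% in mAC and 5.6%, 2.91% and 3.4% in mAC_Mito. The highest value of each group was that of its library 1, and the groups overlapped over most of their range (difference of the means -1.08 percentage points, two-sided exact permutation p = 0.6, where 3 against 3 libraries cannot go below 0.1). Without mAC 1 the difference turned to 0.051 percentage points. In bulk RNA, fewer cells of a kind and less RNA per cell cannot be told apart.

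**Figure D1:**
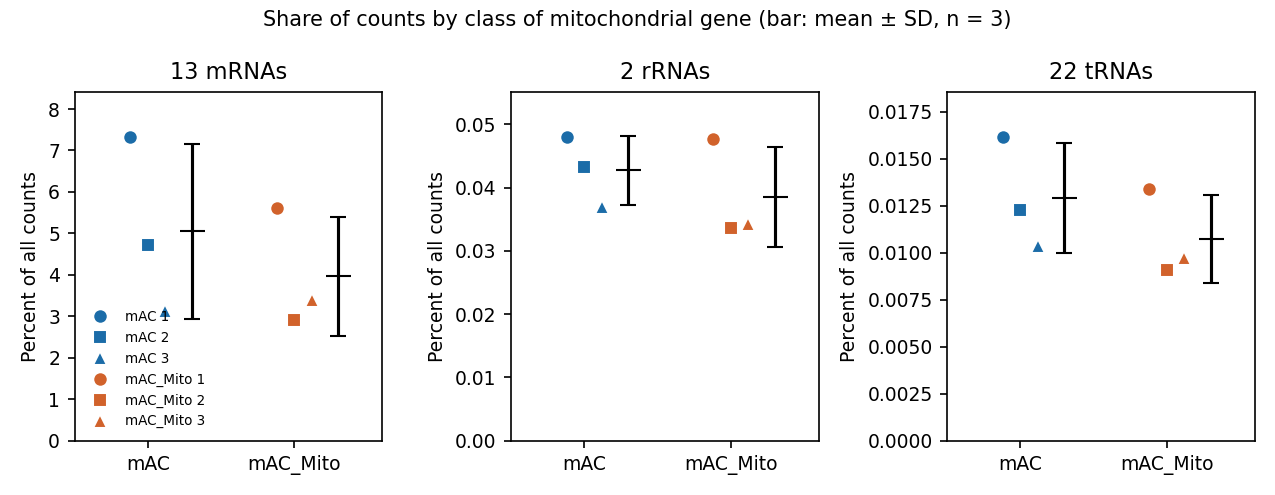
Percent of all counts (vertical axis, from 0) taken by the 13 mRNAs, 2 rRNAs and 22 tRNAs of the mitochondrial genome in each library, with mean and SD of each group (n = 3) in black. For the mRNAs, mAC 1 is highest at 7.31% and mAC_Mito 2 lowest at 2.91%, and the groups overlap in all 3 panels.

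Among subunits of complex I, the NADH dehydrogenase that feeds electrons into the chain, mt-Nd1 (ENSMUSG00000064341, MT, 2751 to 3707) was at 5781, 3487 and 2106 FPKM in mAC and at 4145, 1954 and 2438 FPKM in mAC_Mito. mt-Nd2 (MT, 3914 to 4951) was at 2645, 1464 and 961 FPKM in mAC and 1672, 978 and 1085 FPKM in mAC_Mito. Both had the order mAC 1, mAC_Mito 1, mAC 2 at the top, with the other 3 libraries of both groups below. mt-Nd4l (MT, 9877 to 10173) was at 2641, 1274 and 912 FPKM in mAC and at 1534, 974 and 977 FPKM in mAC_Mito. mt-Nd4 (MT, 10167 to 11544), with which it overlaps, was at 3270, 1788 and 1177 FPKM in mAC and 2104, 1201 and 1372 FPKM in mAC_Mito. The ratio of mt-Nd4l to mt-Nd4, which may compare parts of the same RNA, stayed between 0.712 and 0.811 in the 6 libraries. Each gene's CPM, its count scaled to the library total, differed up to 3.02-fold and 2.9-fold between libraries. The proton-pumping subunit mt-Nd5 (MT, 11742 to 13565) was at 3126, 1531 and 1052 FPKM in mAC and 1852, 1118 and 1189 FPKM in mAC_Mito.

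mt-Nd6 (ENSMUSG00000064368, MT, 13552 to 14070), the complex I subunit encoded on the minus strand, had almost the level of mt-Nd5 in each library. It was at 2952, 1594 and 1071 FPKM in mAC and at 1887, 1139 and 1272 FPKM in mAC_Mito. Its FPKM divided by that of mt-Nd5 was 0.944, 1.04 and 1.02 in mAC and 1.02, 1.02 and 1.07 in mAC_Mito. The strand used in counting is not given in the sources used here. As background, the mature mt-Nd5 RNA is known to run on past its coding sequence, antisense to mt-Nd6, so the counts of mt-Nd6 and of such an extension cannot be told apart. Per 1000 counts of the other 12 mRNAs, mt-Nd6 had 25.6, 20.7 and 20.8 counts in mAC and 21.4, 23.4 and 22.5 in mAC_Mito. Whether poly(A) selection captured mt-Nd6 RNA as well as the other mRNAs was not tested, so this ratio does not measure the RNA of the 2 strands. On the log2 scale it differed between the groups by 0.01 (exact permutation p = 1.0). The sign changed when mAC 2, mAC 3 or mAC_Mito 2 was left out.

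mt-Nd3 (ENSMUSG00000064360, MT, 9459 to 9806), a small membrane subunit of complex I, stood apart from the other mRNAs. It was the lowest of them at 495, 517 and 457 FPKM in mAC and 537, 413 and 410 FPKM in mAC_Mito. Its CPM differed 1.39-fold between the highest and the lowest library, where the median over the 13 mRNAs was 2.87-fold. It was also the mRNA that was not highest in mAC 1, its top library being mAC_Mito 1. Of the total count of the 13 mRNAs, mt-Nd3 took 0.281% in mAC 1 and 0.582% in mAC 3, with 0.44% in mAC 2 and 0.4%, 0.556% and 0.476% in mAC_Mito.

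Complex III has a single subunit of mitochondrial origin, the cytochrome b encoded by mt-Cytb (ENSMUSG00000064370, MT, 14145 to 15288). It was at 6517, 4083 and 2688 FPKM in mAC and at 4739, 2470 and 2959 FPKM in mAC_Mito. It had a higher level than mt-Nd1, mt-Nd2, mt-Nd5 and mt-Nd6, the other mRNAs outside the copied stretch, in every library. Its part of the mRNA pool varied little, from 10.9% in mAC_Mito 2 to 12.2% in mAC 1.

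The 3 subunits of cytochrome oxidase (complex IV), which passes electrons to oxygen, include the mitochondrial gene with the highest FPKM in these poly(A)-selected libraries. mt-Co1 (ENSMUSG00000064351, MT, 5328 to 6872) was at 12397, 9888 and 6669 FPKM in mAC and 11085, 6119 and 7094 FPKM in mAC_Mito, which gave it the highest mean FPKM of all genes in the table. mt-Co2 (MT, 7013 to 7696) was at 7096, 4626 and 3191 FPKM in mAC and 5259, 2910 and 3337 FPKM in mAC_Mito. mt-Co3 (MT, 8607 to 9390) was at 3654, 3373 and 2588 FPKM in mAC and 3483, 2344 and 2582 FPKM in mAC_Mito. The CPM of mt-Co3 differed only 1.65-fold between libraries and that of mt-Co1 2.15-fold, after mt-Nd3 the smallest ranges among the mRNAs. In mAC 1 mt-Co1 therefore made up 31.2% of the mRNA pool and mt-Co3 4.67%, against 36.5% to 37.7% and 5.84% to 7.42% in the other 5 libraries.

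The 2 subunits of ATP synthase are read from overlapping frames. mt-Atp6 (ENSMUSG00000064357, MT, 7927 to 8607), part of the proton channel, was at 6062, 3873 and 2444 FPKM in mAC and 4491, 2387 and 2989 FPKM in mAC_Mito. mt-Atp8 (ENSMUSG00000064356, MT, 7766 to 7969) was at 9179, 4806 and 2674 FPKM in mAC and 6059, 2641 and 3494 FPKM in mAC_Mito. mt-Atp8 had the widest range of the 13 mRNAs, with CPM 3.69-fold higher in mAC 1 than in mAC_Mito 2. The FPKM of mt-Atp8 relative to mt-Atp6 was 1.51, 1.24 and 1.09 in mAC and 1.35, 1.11 and 1.17 in mAC_Mito. As no tRNA separates these genes, the ratio may compare parts of the same RNA and not the levels of separate mRNAs. The ratio was highest in mAC 1, mAC_Mito 1 and mAC 2, the libraries with the largest mRNA shares.

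**Figure D2:**
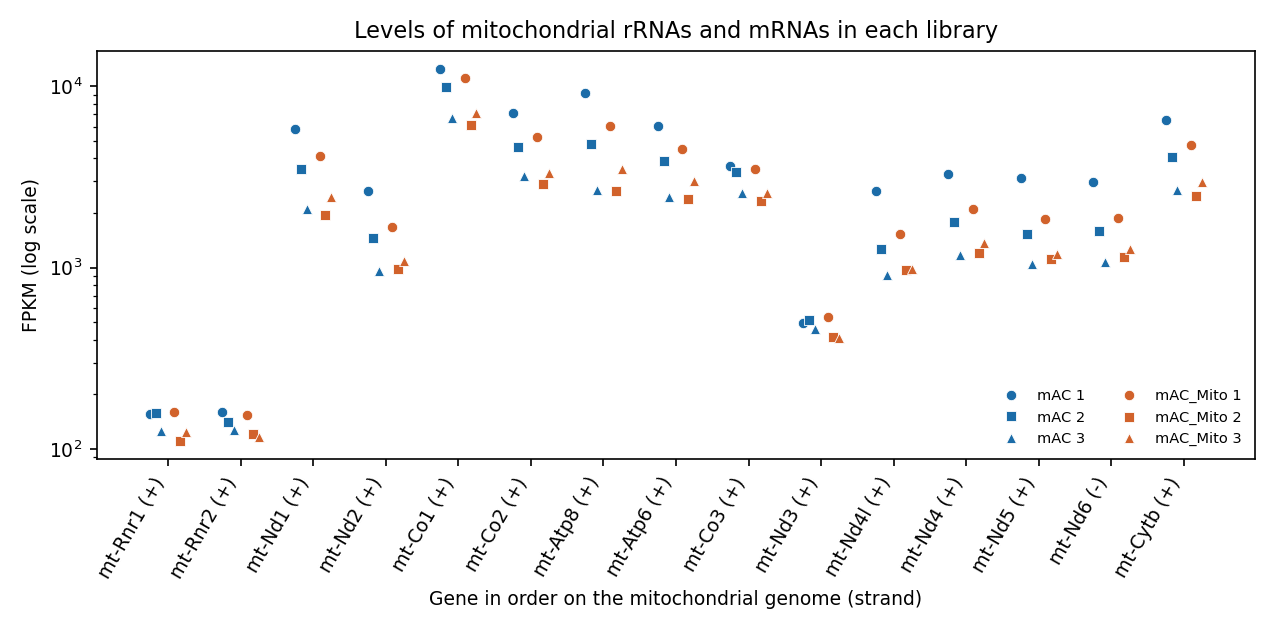
FPKM (vertical axis, log scale) of the 2 rRNAs and 13 mRNAs in their order on the mitochondrial genome, with the strand in brackets; each point is 1 library, blue for mAC and orange for mAC_Mito, with the symbol giving the replicate. mAC 1 is the highest library for 12 of the 13 mRNAs, and mt-Nd3 and the rRNAs lie lower and closer together than the other mRNAs.

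As a list, the mRNAs did not separate the groups. None of the 13 passed an adjusted p of 0.05 in edgeR's quasi-likelihood test on counts, against 0.0113% of all 17645 genes tested (0.00567% in the lower direction), and none had an unadjusted p under 0.05, against 3.19% of all genes. DESeq2 and limma also called 0 of the 13. All 13 log2 fold changes were below 0, as were 49.6% of all genes. They ran from -0.51 for mt-Nd4l to -0.13 for mt-Nd3, with a median of -0.42, beside a median of 0.0016 over all genes tested. The 95% intervals reached from -1.49 to 0.52 (both ends for mt-Atp8). For the 5 mRNAs without a listed nuclear copy the median was -0.45.

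The common sign rested on mAC 1. Without this library 11 of the 13 log2 fold changes were above 0 and the median was 0.073, and the 2 that stayed below 0 were those of mt-Co3 (-0.06) and mt-Nd3 (-0.07). The median was -0.73 without mAC 3 and -0.78 without mAC_Mito 1, and -0.22 without mAC_Mito 2. None of the mRNAs passed an adjusted p of 0.05 in edgeR with any of the libraries left out. Without mAC 3, 10 had an unadjusted p under 0.05, against 773 of all 18157 genes tested in that fit. Without mAC_Mito 1 there were 4, against 1225 of 18182 genes. With the replicate number as a block there were 2, against 533 of 17645 genes. The mRNAs largely rose and fell together between libraries, so they do not count as separate results. For each of the 13 mRNAs the groups overlapped.

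**Figure D3:**
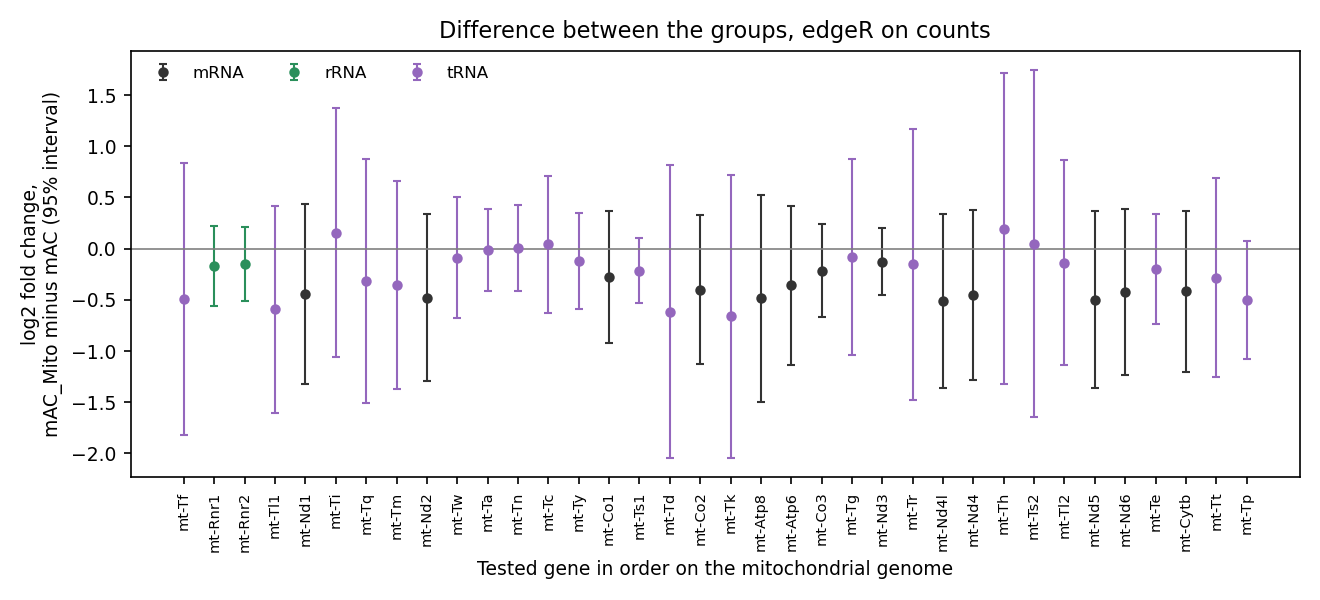
Log2 fold change (vertical axis, mAC_Mito minus mAC) with its 95% interval from edgeR for the 36 tested genes in genome order, mRNAs in black, rRNAs in green and tRNAs in purple. All 13 mRNAs lie between -0.51 and -0.13 and every interval includes 0.

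Within the pool of the 13 mRNAs, the shares of 12 overlapped between the groups. The share of mt-Co2 was the one whose groups did not overlap, at 7.92%, 7.74% and 7.98% of the pool in mAC and 7.69%, 7.69% and 7.61% in mAC_Mito. This difference of -0.22 percentage points had the smallest p that the exact permutation test allows (p = 0.1), with an adjusted p of 1.0 over the 13 mRNAs, and on FPKM the groups overlapped for it too. By complex, the 7 mRNAs of complex I held 28.99% ± 2.41 of the summed mRNA FPKM in mAC and 28.4% ± 0.646 in mAC_Mito (SD, n = 3). The 3 of complex IV held 40.6% ± 4.86 and 41.7% ± 1.05, mt-Cytb of complex III 9.72% ± 0.16 and 9.49% ± 0.216, and the 2 of complex V 20.7% ± 2.44 and 20.4% ± 1.4. The larger SDs of mAC came from mAC 1, where complex I was at 31.8% and complex IV at 35.2%, against 27.6% to 29.2% and 40.6% to 44.5% in the other libraries. Without mAC 1, 5 mRNAs (mt-Co1, mt-Co2, mt-Nd4, mt-Nd5 and mt-Nd6) had shares that did not overlap between the groups. With that library left out, CPM did not overlap for 20.8% of all genes tested, and the shares of 1 pool depend on each other.

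The rRNAs, the RNA scaffold of the mitochondrial ribosome, were lower than each of the 13 mRNAs in these poly(A)-selected libraries, and their CPM varied 1.53-fold (mt-Rnr1) and 1.45-fold (mt-Rnr2), more than that of mt-Nd3 and less than that of the other 12 mRNAs. The 12S rRNA mt-Rnr1 (ENSMUSG00000064337, MT, 70 to 1024) was at 155, 158 and 126 FPKM in mAC and 160.1, 111 and 124 FPKM in mAC_Mito. The 16S rRNA mt-Rnr2 (ENSMUSG00000064339, MT, 1094 to 2675) was at 160.1, 142 and 128 FPKM in mAC and 155, 122 and 117 FPKM in mAC_Mito. As background, these rRNAs have very short tails and are mostly lost in oligo-dT capture, so their level here does not measure the ribosomal RNA content of the cells. The ratio of mt-Rnr1 to mt-Rnr2 was near 1 throughout, between 0.914 and 1.12. Both log2 fold changes were small (-0.17 with a standard error of 0.18 for mt-Rnr1 and -0.15 with 0.16 for mt-Rnr2), and neither passed in edgeR (adjusted p = 0.99992 for both), nor had an unadjusted p under 0.05.

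Relative to the mRNAs, the rRNAs varied with the library. For every 1000 mRNA counts there were 6.55, 9.19 and 11.8 rRNA counts in mAC and 8.51, 11.5 and 10.1 in mAC_Mito. The ratio was lowest in mAC 1, mAC_Mito 1 and mAC 2, the libraries with the largest mRNA share. The mRNA count is the denominator of this ratio, so its order follows largely from the mRNA share. That share varied 2.51-fold between libraries, and the rRNA share 1.425-fold. At the boundary of the ribosomal and the protein-coding part of the genome, mt-Nd1 had 36.1, 24.6 and 16.4 times the FPKM of mt-Rnr2 in mAC and 26.8, 16.1 and 20.9 times in mAC_Mito. Between the groups the log2 ratio of rRNA to mRNA differed by 0.16 (exact permutation p = 0.7) and by -0.06 without mAC 1.

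The 22 tRNA genes, 59 to 75 bases long, gave few counts. As background, mature tRNAs carry no poly(A) tail, and whether a read came from a free tRNA or a longer RNA cannot be told apart here. The 5 tRNAs with the highest mean count held 82.0% of tRNA counts, and 73.4% of tRNA counts fell on the 8 tRNAs of the minus strand. Of the 8 tRNAs with a mean of at least 100 counts, 7 lie on the minus strand, mt-Tl1 being the exception. The other 13 plus-strand tRNAs and mt-Tq on the minus strand were below that. The strand here is that of the annotated gene. As the strand used in counting is not given, the counts may come from RNA of either strand. The sequences of the tRNAs that carry most counts, and of mt-Ta, mt-Tc and mt-Ty, which lie in the same cluster as mt-Tn and were added after their values were seen, are given 5′ to 3′ from the GENCODE M21 transcripts. Capitals mark the anticodon, located by its paired stem.
mt-Ts1, serine (MT, 6870 to 6938, minus strand): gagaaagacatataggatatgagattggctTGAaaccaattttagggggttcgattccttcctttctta
mt-Tl1, leucine (MT, 2676 to 2750, plus strand): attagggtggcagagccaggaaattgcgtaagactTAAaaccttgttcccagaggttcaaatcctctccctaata
mt-Te, glutamic acid (MT, 14071 to 14139, minus strand): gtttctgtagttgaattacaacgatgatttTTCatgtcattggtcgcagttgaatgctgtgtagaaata
mt-Tp, proline (MT, 15356 to 15422, minus strand): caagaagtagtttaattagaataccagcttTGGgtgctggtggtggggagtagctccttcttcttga
mt-Ta, alanine (MT, 5018 to 5086, minus strand): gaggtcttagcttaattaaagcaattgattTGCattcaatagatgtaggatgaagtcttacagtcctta
mt-Tn, asparagine (MT, 5089 to 5159, minus strand): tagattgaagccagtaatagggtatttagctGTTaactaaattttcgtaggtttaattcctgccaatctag
mt-Tc, cysteine (MT, 5192 to 5257, minus strand): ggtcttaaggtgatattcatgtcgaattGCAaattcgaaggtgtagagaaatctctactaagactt
mt-Ty, tyrosine (MT, 5260 to 5326, minus strand): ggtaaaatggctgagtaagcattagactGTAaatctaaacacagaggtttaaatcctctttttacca

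The 4 tRNAs with the most counts had their highest CPM in mAC 1, as most mRNAs did. mt-Tl1, directly before mt-Nd1 with no base between them, had 2911, 1764 and 845 counts in mAC and 1939, 763 and 1010 counts in mAC_Mito. Its FPKM was 7.48% to 9.52% of that of mt-Nd1 in every library. mt-Te, which adjoins mt-Nd6 on the minus strand, had 1443, 1195 and 802 counts in mAC and 1244, 835 and 900 counts in mAC_Mito. mt-Tp, the last gene before the control region, had 1042, 818 and 631 counts in mAC and 800, 458 and 500 counts in mAC_Mito. For each of these 3 tRNAs mAC 1 and mAC_Mito 1 were the highest libraries of their groups. mt-Ts1, antisense to the end of mt-Co1 by 3 bases, had 2539, 2555 and 2188 counts in mAC and 2475, 1844 and 1876 counts in mAC_Mito, a 1.4-fold range of CPM.

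The cluster of mt-Ta, mt-Tn, mt-Tc and mt-Ty on the minus strand, between mt-Nd2 and mt-Co1, did not follow the mRNAs. A gap of 32 bases between mt-Tn and mt-Tc holds, as background, the origin from which the light strand is replicated. mt-Tn had 355, 582 and 590 counts in mAC and 597, 416 and 479 counts in mAC_Mito. mt-Tc had 128, 325 and 364 counts in mAC and 261, 272 and 273 counts in mAC_Mito. mt-Ta had 339, 504 and 505 counts in mAC and 523, 358 and 420 in mAC_Mito. For these 3 genes mAC 1, the library with the most mitochondrial mRNA, was the lowest in CPM. mt-Ty varied 1.3-fold in CPM, with 133, 186 and 158 counts in mAC and 164, 136 and 128 in mAC_Mito. The 4 tRNAs together made up 10.0% of tRNA counts in mAC 1, 19.0% in mAC 2 and 25.0% in mAC 3, and 18.1%, 21.7% and 21.8% in mAC_Mito. A group difference in their summed CPM was not detected (21.8 ± 5.06 in mAC and 21.7 ± 2.34 in mAC_Mito, SD, n = 3, exact permutation p = 1.0). Because use of strand is not given, these reads may belong to either strand.

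On the plus strand, the neighbours mt-Th and mt-Ts2, which carry histidine and serine and lie between mt-Nd4 and mt-Nd5, also had their lowest CPM in mAC 1. Counts were small, 8, 10 and 28 in mAC and 10, 17 and 24 in mAC_Mito for mt-Th, and 5, 7 and 23 in mAC and 7, 12 and 16 in mAC_Mito for mt-Ts2. Both genes were highest in mAC 3, where the mRNAs were near their lowest. In all, 13 of the 22 tRNAs were highest in mAC 1 and 5 were lowest there. Among other tested genes with a mean of at least 100 CPM, 16.5% were highest in mAC 1, but all tRNAs lay below that level. The share of genes lowest in mAC 1 was not computed, so these counts are not set against all genes.

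**Figure D4:**
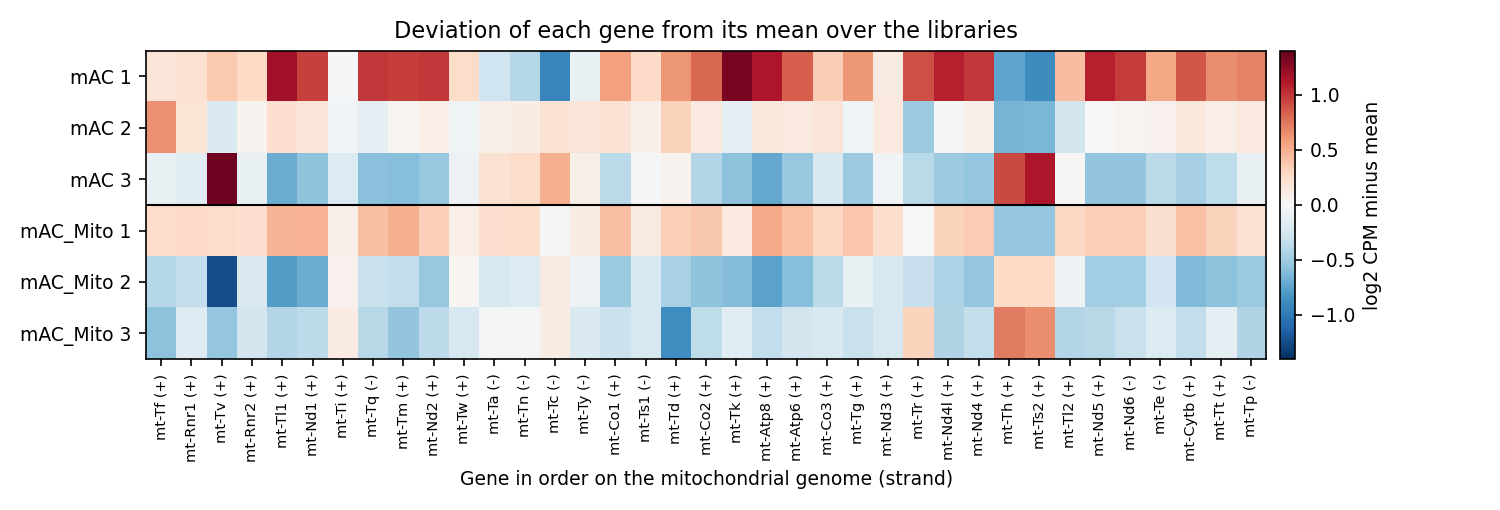
Log2 CPM of each of the 37 genes minus its mean over the 6 libraries (colour), with genes in genome order along the horizontal axis and libraries in rows. The row of mAC 1 is red for 12 of the 13 mRNAs at 0.35 or more and near 0 for mt-Nd3, while mt-Ta, mt-Tn, mt-Tc, mt-Th and mt-Ts2 are blue there.

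Between the groups, 21 of the 22 tRNAs could be tested. mt-Tv, with 1 to 9 counts per library, did not reach the filter on low counts. None of the 21 passed an adjusted p of 0.05 in edgeR, none had an unadjusted p under 0.05, and DESeq2 and limma called 0, DESeq2 with 1 unadjusted p under 0.05. Their log2 fold changes ran from -0.66 for mt-Tk to 0.19 for mt-Th with a median of -0.15, 16 below and 5 above 0. mt-Tp had the lowest unadjusted p of the 37 genes in edgeR (0.0828), with a log2 fold change of -0.50, a standard error of 0.26 and an adjusted p of 0.99992. In mt-Ti, with 13 to 16 counts per library, CPM did not overlap between the groups, which held for 7.99% of all genes tested. Its log2 fold change of 0.16 had an interval of -1.06 to 1.37.

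The spread of the mRNAs between libraries was wider than is usual for genes with many counts. The median of the highest over the lowest CPM was 2.87 for the 13 mRNAs and 1.87 without mAC 1. Among 1883 other genes with a mean of at least 100 CPM it was 1.27, and 90% of these genes were below 1.63. Of those genes 16.5% were highest in mAC 1, against 12 of the 13 mRNAs.

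Nuclear genes that act on mitochondrial RNA or join its products were measured as lists. Of 22 factors of mitochondrial DNA transcription and replication, none passed an adjusted p of 0.05 in edgeR. In the same test 1 had an unadjusted p under 0.05, against 3.19% of all genes tested. Of their log2 fold changes 10 were above and 12 below 0, and the median was -0.03. The RNA polymerase Polrmt was at 3.15, 3.76 and 3.27 FPKM in mAC and 3.55, 4.1 and 3.99 FPKM in mAC_Mito, and Tfam, which packages the genome and opens its promoters, at 5.46, 6.96 and 9.09 FPKM in mAC and 6.13, 7.69 and 6.55 FPKM in mAC_Mito. Tfam was lowest in mAC 1, where the mitochondrial mRNAs were highest. The list as a whole was not low there: log2 CPM less each gene's average in the 6 libraries, averaged over the 22 factors, was -0.015 in mAC 1. Dna2, a nuclease and helicase, was the list's gene with the smallest unadjusted p (0.0292 in edgeR, adjusted p = 0.99992), at 0.889 ± 0.0974 and 0.64 ± 0.13 FPKM (SD, n = 3).

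Of 36 factors that process, modify or degrade mitochondrial RNA, none passed in edgeR and 0 had an unadjusted p under 0.05, 16 were above and 20 below 0, and the median was -0.04. Lrpprc, which stabilises the mRNAs, was at 3.97, 3.9 and 4.94 FPKM in mAC and 3.99, 5.92 and 4.57 FPKM in mAC_Mito. Fastkd2, an RNA-binding protein of the mitochondrial matrix, was at 3.07 ± 0.308 and 2.67 ± 0.112 FPKM and Pnpt1, the mitochondrial polynucleotide phosphorylase, at 9.84 ± 0.088 and 8.89 ± 0.536 FPKM (SD, n = 3). None of the 22 enzymes that charge mitochondrial tRNAs or help to do so passed in edgeR (0 with an unadjusted p under 0.05, 8 above and 14 below 0, median -0.03). Ears2, the enzyme for glutamic acid, had group means of 1.7 ± 0.209 and 1.89 ± 0.167 FPKM.

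For nuclear subunits of complexes I, III, IV and V no difference was detected either, with 0 of 30 passing in edgeR, 0 with an unadjusted p under 0.05, 15 above and 15 below 0 and a median of 0.002. Their level was lowest in mAC 1, where that of the mitochondrial mRNAs was highest. A level here is a gene's log2 CPM less its average in the 6 libraries, averaged over the list. For the nuclear subunits the level stood at -0.27, 0.07 and 0.16 in mAC and -0.05, 0.04 and 0.04 in mAC_Mito. For the 13 mitochondrial mRNAs it was 0.88, 0.11 and -0.50 in mAC and 0.38, -0.54 and -0.33 in mAC_Mito. Cox5b, which the nucleus supplies to complex IV, was at 26.7, 44.5 and 45.9 FPKM in mAC and 40.6, 44.7 and 44.7 FPKM in mAC_Mito, and Cox5a at 22.9, 32.4 and 37.7 FPKM in mAC and 29.5, 37.6 and 34.1 FPKM in mAC_Mito. Both were lowest in mAC 1. Of 12 genes for abundant proteins that reflect mitochondrial mass, none passed in edgeR and 0 had an unadjusted p under 0.05, 4 were above and 8 below 0, and the level of the list was -0.13 in mAC 1 and 0.13 in mAC 3. The outer membrane channel Vdac1 was at 107 ± 12.4 and 104 ± 5.91 FPKM and citrate synthase (Cs) at 33.3 ± 2.76 and 36.2 ± 3.47 FPKM (SD, n = 3).

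**Figure D5:**
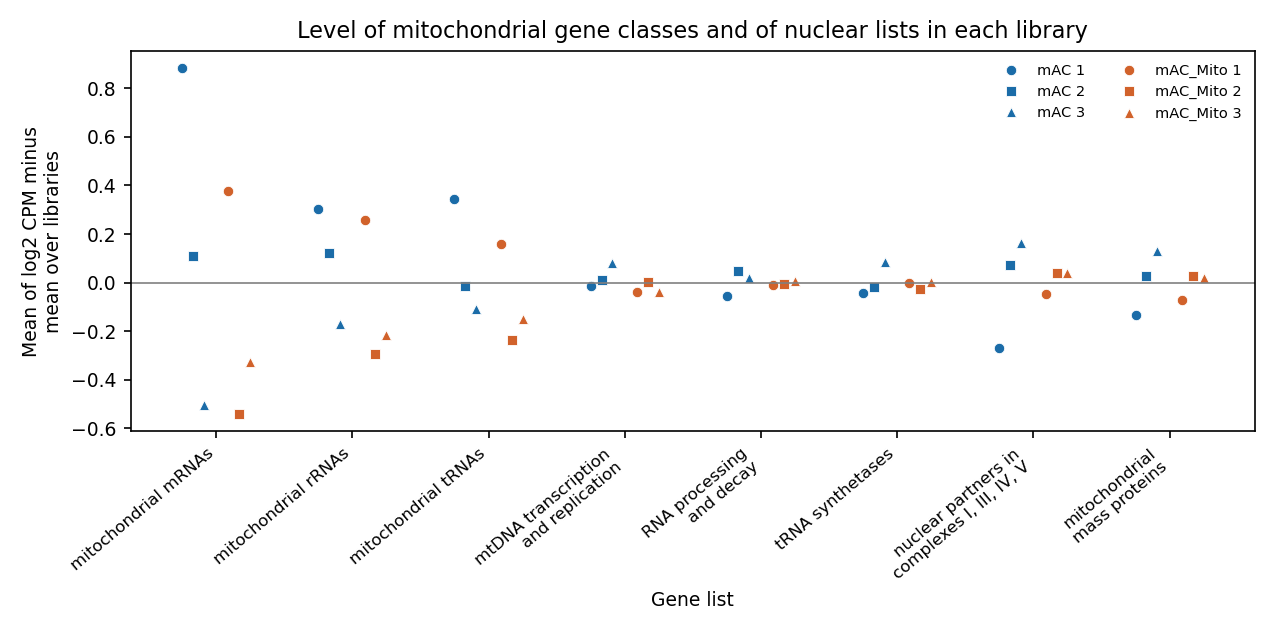
Level of each list in each library (vertical axis, log2 CPM less each gene's average in the 6 libraries, averaged over the list) for the 3 classes of mitochondrial gene and 5 lists of nuclear genes; blue is mAC, orange mAC_Mito, and the symbol gives the replicate. The mRNAs span -0.54 to 0.88, and the nuclear subunits of the complexes are lowest in mAC 1 at -0.27.

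Markers of other cell types were measured in the same libraries. The 14 skeletal muscle markers had a summed level of 60.4 to 108 FPKM in mAC and 88.5 to 108 FPKM in mAC_Mito and were lowest in mAC 1. All 14 log2 fold changes were above 0, and none passed an adjusted p of 0.05 in edgeR. In the same test 2 had an unadjusted p under 0.05 (Myh8 at 0.00496 and Tnnc2 at 0.0378, both without overlap between the groups). Over all genes tested, 3.19% had an unadjusted p under 0.05, CPM did not overlap for 7.99%, and 49.6% of log2 fold changes were below 0. The 6 adipocyte markers were at 52.7 to 84.8 FPKM and 70.1 to 88.5 FPKM, and the 11 macrophage and leukocyte markers at 66.1 to 84.6 FPKM and 73.7 to 119 FPKM, again lowest in mAC 1. Most of the macrophage and leukocyte sum came from Lyz2 (49.0 to 96.4 FPKM), while Cd68 was highest in mAC 1 at 9.59 FPKM. Of the log2 fold changes of the adipocyte and the macrophage and leukocyte markers, 6 of 6 and 7 of 11 were above 0. None of these genes passed in edgeR or had an unadjusted p under 0.05. The 5 endothelial markers summed to 0.264 to 0.422 FPKM and the 5 red blood cell markers to 0 to 0.412 FPKM. The nuclear-retained RNA Malat1 was at 10.2, 6.15 and 14.7 FPKM in mAC and 5.17, 7.53 and 5.51 FPKM in mAC_Mito (log2 fold change -0.79, unadjusted p = 0.0129 and adjusted p = 0.99992 in edgeR). Neat1, the other nuclear-retained RNA measured, was at 5.66, 8.35 and 11.8 FPKM in mAC and 7.64, 11.5 and 9.87 FPKM in mAC_Mito (log2 fold change 0.16). The part of these differences in the levels of the mitochondrial RNAs was not tested.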

How the data were processed

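The authors deposited 1 table with 2 values per gene and library. Raw counts per gene were deposited without normalization, per the file headers, and FPKM was computed and deposited by the authors, per the file headers. For all 222 values of the 37 genes the deposited count lay 0 to 1 above FPKM times gene length times 1 factor per library (tolerance 0.05%), so the counts may be coverage rounded up to whole numbers, and no counting interval is given. Per the submitters' processing notes, Bowtie 0.12.2, HISAT2 2.0 and StringTie 1.3.0 were used, with mm8 listed as build and no roles given. The extraction text in the labels speaks of adipose tissue. The coordinates are those of GRCm38. Not given in the sources used here: the counter, use of strand and treatment of reads with several matches.

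Counts were compared with edgeR 4.0.16 in R 4.3.3 (filterByExpr with minimum count 10 and minimum total 15, TMM, quasi-likelihood test, Benjamini-Hochberg over 17645 genes, threshold 0.05, checked on simulated data). The simulation gave all genes the same small spread, so it did not cover genes that vary between libraries as the mitochondrial mRNAs do. Intervals are those implied by the F statistic. Single values per library were compared by two-sided exact permutation tests (scipy 1.17.1). Alternatives used DESeq2 1.42.0 and limma 3.58.1 on log2(FPKM + 1). Libraries with the same number did not deviate together in each pair (r = 0.124, -0.06 and -0.012), so they were not treated as paired. No 2 libraries agreed within sampling noise (chi-square per degree of freedom of 23.6 or more).

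All 13 mRNAs, both rRNAs and the 5 tRNAs with the highest mean count are named, with, per nuclear list, the 2 genes of smallest unadjusted p and Polrmt, Tfam and Lrpprc. One gene that this rule names is not reported here. Other tRNAs, Malat1, Neat1 and the bone, muscle and macrophage markers were named after their values were seen. Members and lists were chosen with earlier results of these data known.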

Additional observations from a re-analysis of the deposited data

How the results depend on the processing

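Over the 16 alternatives for each of the 36 tested genes (scaling by DESeq2 size factors, by totals or without the mitochondrial genes and their nuclear copies, the last of these chosen after seeing the data; no filter; DESeq2; limma with other pseudocounts or a filter; the replicate block; each library left out), all 576 log2 fold changes stayed on the same side of the threshold, none past it. For the median of the mRNAs these values ran from -0.43 to -0.34 with all libraries, and from -0.78 to 0.073 with each library left out. With the replicate number as a block the median was -0.37, the count of mRNAs past the threshold was 0, and the difference in their share of counts had an exact sign-flip p of 0.5. Leaving out each library gave differences in that share from -2.04 to 0.051 percentage points, in the log2 ratio of mt-Nd6 to the other mRNAs from -0.042 to 0.11, of rRNA to mRNA from -0.062 to 0.36 and of tRNA to mRNA from -0.085 to 0.21. With the nuclear copies added to the mRNAs, also chosen after seeing the data, the difference in share was -1.37, and as a percent of summed FPKM -2.64. The number of mRNAs whose pool shares did not overlap was 1 to 5 with a library left out, 1 over same-numbered pairs and 0 on FPKM; the cause was not tested. Over all genes, edgeR called 1 higher and 1 lower, DESeq2 2 and 2, edgeR without a filter and limma 0 and 0, limma with a pseudocount of 0.1 1 and 0, limma on genes with FPKM of at least 1 1 and 1, and edgeR with each library left out 0 to 3 higher and 0 to 1 lower. Spread between 3 libraries limited the mRNAs, whose 95% intervals reached from -1.49 to 0.52. Of the 22 tRNAs, 14 had a mean under 100 counts; how far depth limits them was not tested.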
